A study of Mus musculus with 24 samples.

Results

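Lyz1 and Lyz2 encode the lysozymes of the mouse, and both were measured by RNA sequencing in bone marrow-derived macrophages (BMDMs) during the first 2 h after LPS. The members were the rows of the deposited normalised expression table named Lyz1 (ENSMUSG00000069515) and Lyz2 (ENSMUSG00000069516), 2 of 24273 genes. The study compared C57BL/6 BMDMs that carry LysM-Cre, the controls, with BMDMs labelled FosKO, which carry LysM-Cre and Fos-fl/fl, to ask which genes depend on the transcription factor FOS. By the labels both genotypes therefore carried the Cre driver, and the study's text gives the controls with a floxed Fos allele besides LysM-Cre. Cells were left unstimulated (0 h) or received 100 ng/ml LPS for 0.5, 1 or 2 h, with 3 libraries for each of the 8 groups and 24 libraries in all. Neither the labels nor the methods give the number of Cre alleles per animal, the ages of the animals whose cells were sequenced, or whether the 3 libraries of a group, which the methods call biological replicates, came from separate animals. If they did not, p-values measure only the spread between these libraries.

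Lysozyme is a small secreted enzyme that cleaves the glycan chains of peptidoglycan, the mesh of the bacterial cell wall. In the mouse, Lyz1 is known as the lysozyme gene of Paneth cells in the intestine, and Lyz2, also called lysozyme M, as that of macrophages and neutrophils. The LysM-Cre driver is a knock-in that places the Cre coding sequence at the start codon of Lyz2, so that an allele with Cre is disrupted for Lyz2, and it is active in cells of the myeloid lineage. Lyz2 is thus at once a gene of macrophage function and the locus of the driver.

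In the GENCODE annotation of GRCm38, Lyz2 lies at chr10:117277331-117282321 and Lyz1 at chr10:117287797-117292868. Both are on the minus strand, with 5475 bases between them, and each has 4 exons. Over the coding sequence of 447 bases the genes differed at 22 positions, an identity of 95.1%. The coding part of exon 1, which begins with the start codon at which the Cre cassette sits in Lyz2, is shown because 14 of the 22 coding differences fall in it. Capitals mark these bases, out of 136, an identity of 89.7%. It lies at chr10:117292703-117292838 in Lyz1 and at chr10:117282107-117282242 in Lyz2, and is read on the minus strand.
Lyz1: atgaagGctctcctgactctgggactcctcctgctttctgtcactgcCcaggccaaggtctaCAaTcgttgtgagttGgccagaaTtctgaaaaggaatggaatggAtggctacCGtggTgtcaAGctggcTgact
Lyz2: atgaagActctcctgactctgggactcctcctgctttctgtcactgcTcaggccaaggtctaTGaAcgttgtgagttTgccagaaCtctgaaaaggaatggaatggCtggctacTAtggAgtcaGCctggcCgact

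Reads from near-identical stretches can be assigned to either gene, which bears on how well the pair can be told apart. Of all windows of 50 bases in the Lyz1 transcript (1263 bases), 16.1% occurred unchanged in the Lyz2 transcript (1316 bases), and 15.4% of the Lyz2 windows occurred in Lyz1. For windows of 100 bases the shares were 2.06% and 1.97%. The length of the reads is not given in the sources used here. How the counting divided shared reads, and its part in the values below, was not tested.

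The stretch before each gene's start is shown because the members differ between the genotypes in opposite directions. The bases 250 to 51 before the RefSeq start lie at chr10:117292919-117293118 for Lyz1 and chr10:117282323-117282522 for Lyz2 (GRCm38.p6, minus strand, RefSeq). Capitals mark bases that differ or face a gap. Of 198 aligned bases 48 differed, an identity of 75.8%, and in the 85 bases nearest the start 11 differed, an identity of 87.1%.
Lyz1: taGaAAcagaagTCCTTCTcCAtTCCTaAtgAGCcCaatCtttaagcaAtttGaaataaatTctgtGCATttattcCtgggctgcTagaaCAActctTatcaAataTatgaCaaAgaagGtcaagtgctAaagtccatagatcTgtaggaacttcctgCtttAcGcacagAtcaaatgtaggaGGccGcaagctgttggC
Lyz2: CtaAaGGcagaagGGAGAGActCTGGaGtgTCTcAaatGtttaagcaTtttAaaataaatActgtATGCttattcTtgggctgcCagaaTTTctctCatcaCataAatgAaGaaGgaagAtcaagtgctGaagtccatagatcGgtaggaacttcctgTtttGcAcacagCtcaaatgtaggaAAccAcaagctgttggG

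From 250 bases before to 50 after the start, 4 motifs were searched on both strands. The AP-1 motif TGANTCA, which FOS and its partners bind, was found in neither window, and 7.81% of 32851 windows of the same kind hold it. The ETS motif AGGAAGT, of the kind that PU.1 binds, was found once in each gene and is in 9.35% of all windows. It reads acttcct on the printed strand. The C/EBP motif TTGCNNAA was found once at Lyz1 and not at Lyz2 (10.8% of windows), and the NF-kB motif at neither gene (20.7% of windows). These letters describe the windows only, and no binding was measured.

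Before the results, 3 features of the libraries need stating. Fos, the targeted gene, went against the label: its mean log2 value in LysM-Cre was 11.11, 13.52, 11.15 and 9.52 at 0, 0.5, 1 and 2 h, and in the FosKO-labelled libraries 12.60, 12.75, 12.78 and 12.80. It was thus higher in the FosKO-labelled libraries at 0, 1 and 2 h with no overlap between the groups, and lower at 0.5 h, also with no overlap. Whether the values count Fos sequence outside the deleted part was not tested. Next, 5 libraries had a lower level of 18S ribosomal RNA (Rn18s-rs5, 16.65 to 17.00) than the other 19 (18.57 to 19.39), and all 5 were at 0.5 or 1 h. Lastly, the cells carried macrophage transcripts: Csf1r, the receptor that macrophages need for survival, lay between 14.95 and 15.28 in all 24 libraries and Adgre1, a standard macrophage surface marker, between 14.61 and 15.21. Ly6g, which marks neutrophils, was at most -2.20, near the lowest value of the table of -2.22, and Cd3e, which marks T cells, at most -0.94.

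Values are the deposited log2 values, a gene was tested if 3 or more libraries had a linear value of 5 or above, and it was called if its limma p-value, adjusted over all tested genes, was under 0.05. Lyz2 was by far the more strongly different member. In the FosKO-labelled libraries it was 29.6- to 35.9-fold higher than in LysM-Cre at every time, and this was the largest difference of any of the 13901 genes tested, in either direction, at all 4 times. Lyz1 differed in the opposite direction and was lower in the FosKO-labelled libraries, at 0.636 to 0.676 of the LysM-Cre level. In bulk RNA, fewer cells that express a gene and less RNA per cell cannot be told apart.

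At 0 h the log2 values of Lyz2 in the LysM-Cre replicates 1, 2 and 3 were 10.90, 11.04 and 10.87. In the FosKO-labelled libraries they were 16.08, 16.12 and 16.12. The lowest FosKO-labelled library lay 5.04 above the highest LysM-Cre library, and the spread within a genotype was small beside that gap. At 0.5 h LysM-Cre gave 11.15, 11.57 and 11.27, and FosKO-labelled libraries gave 16.20, 16.18 and 16.28. At 1 h the LysM-Cre values were 11.12, 11.42 and 11.17, against 16.20, 16.26 and 16.19. In both sets the genotypes remained apart, by 4.61 at 0.5 h and by 4.77 at 1 h. By 2 h LysM-Cre stood at 11.18, 11.43 and 11.17, and the FosKO-labelled libraries at 16.33, 16.29 and 16.33, a gap of 4.86. Replicate 2 was the highest of the LysM-Cre libraries at each time, and no such order was seen in the FosKO-labelled libraries.

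The difference in Lyz2 between FosKO-labelled libraries and LysM-Cre was 5.17 on the log2 scale at 0 h (SE 0.086, n = 3 against 3, limma adjusted p = 9.26e-20), 35.9-fold. With LPS it came to 4.89 (0.5 h, adjusted p = 1.17e-19), 4.98 (1 h, adjusted p = 8.05e-20) and 5.06 (2 h, adjusted p = 5.97e-20), each with the same SE. Among all genes tested, 19.5%, 21.2%, 18% and 24.4% were called higher at the 4 times in turn, so a call by itself was common, and the size set Lyz2 apart. Within the libraries of high 18S level the difference was 4.87 at 0.5 h (2 FosKO-labelled against 2 LysM-Cre libraries) and 5.10 at 1 h (2 against 1). Within those of low level it was 4.93 (1 against 1) and 4.91 (1 against 2), values with no spread of their own in an arm of 1 library. The number of Cre alleles in each genotype is not given, so the Cre allele and the Fos genotype cannot be told apart in this difference.

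**Figure D1:**
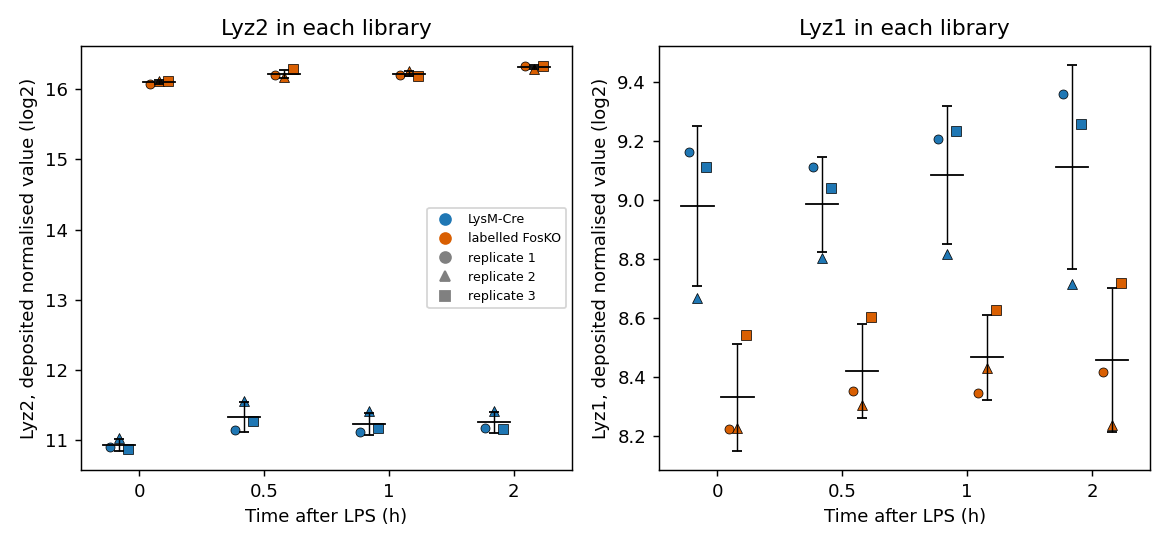
Deposited normalised values (log2) of Lyz2, left, and Lyz1, right, in each of the 24 libraries, by time after LPS in hours. Blue points are LysM-Cre and orange points are FosKO-labelled libraries, the shape gives the replicate number, and bars give the mean and SD of 3 libraries. Lyz2 lies between 10.87 and 11.57 in LysM-Cre and between 16.08 and 16.33 in the FosKO-labelled libraries, and Lyz1 lies in the reverse order, over a much narrower range (8.22 to 9.36). The scales of the panels differ.

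Lyz1 in LysM-Cre replicates 1, 2 and 3 at 0 h was 9.16, 8.67 and 9.11, and in the FosKO-labelled libraries 8.22, 8.23 and 8.54. The groups did not overlap, but the lowest LysM-Cre library was only 0.13 above the highest FosKO-labelled library. The values at 0.5 h were 9.11, 8.81 and 9.04 in LysM-Cre against 8.35, 8.31 and 8.60. For 1 h they were 9.21, 8.82 and 9.23 against 8.35, 8.43 and 8.63. Again the groups lay apart, by 0.20 and 0.19. LysM-Cre libraries at 2 h held 9.36, 8.72 and 9.26, and those labelled FosKO 8.42, 8.24 and 8.72. Here the groups overlapped by 0.0037, between LysM-Cre replicate 2 and FosKO-labelled replicate 3.

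The difference in Lyz1, FosKO-labelled libraries minus LysM-Cre, was -0.65 at 0 h (SE 0.17, n = 3 against 3, limma adjusted p = 0.0048). Once LPS was added it came to -0.57 (0.5 h, adjusted p = 0.0106), -0.62 (1 h, adjusted p = 0.0070) and -0.65 (2 h, adjusted p = 0.0034), with the same SE. All 4 passed the threshold of adjusted p under 0.05, beside 15.9%, 19.7%, 15.9% and 20.3% of all tested genes called lower at 0, 0.5, 1 and 2 h. The fit took all libraries as independent. Each replicate number, however, kept its side of the Lyz1 group mean at all 4 times in both genotypes. The 4 calls may therefore repeat much the same comparison and do not count as 4 separate ones. By size the differences ranked between 645th and 1116th of 13901. Within the high 18S libraries the difference was -0.50 at 0.5 h and -0.68 at 1 h, and within the low ones -0.69 and -0.68, with the same few libraries in each. With the low libraries left out, neither of those comparisons passed (adjusted p = 0.079 and 0.076), in a fit where 1 LysM-Cre library is left at 1 h and is assumed to vary like the other groups, and where the difference at 1 h was no smaller than with all libraries.

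**Figure D2:**
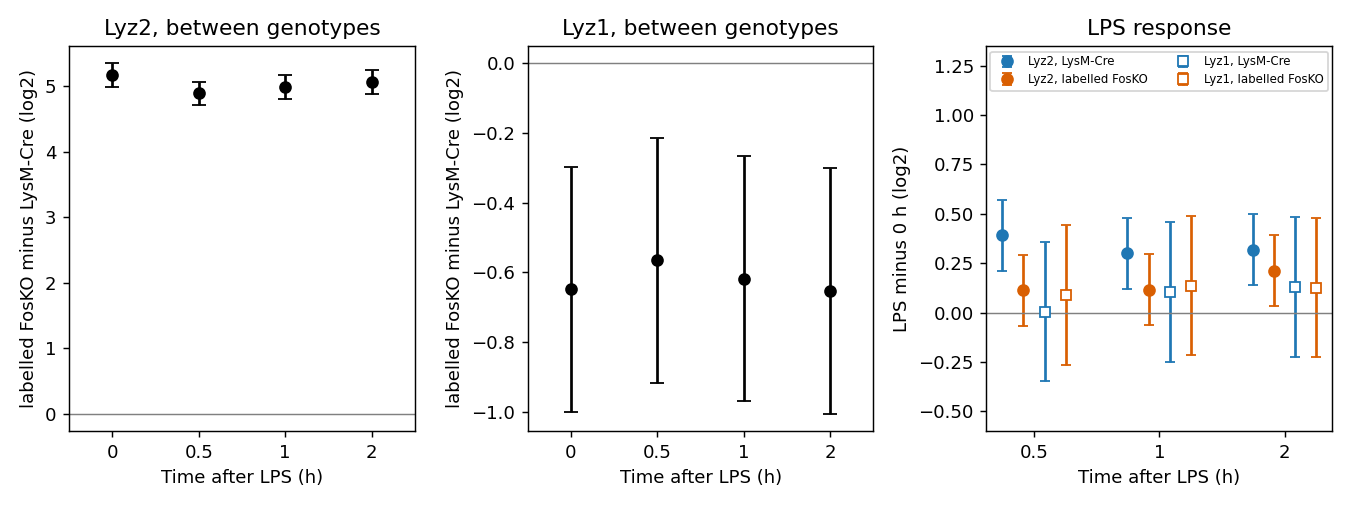
Differences on the log2 scale with 95% confidence intervals from the limma fit (n = 3 libraries per group). Left and middle: FosKO-labelled libraries minus LysM-Cre for Lyz2 and Lyz1 by time after LPS in hours. Right: LPS minus 0 h for each gene (filled circles Lyz2, open squares Lyz1) and genotype (blue LysM-Cre, orange labelled FosKO). Lyz2 lies near 5 and Lyz1 between -0.57 and -0.65 at all times, while the LPS responses stay at 0.39 or below.

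Lyz2 was called higher with LPS in LysM-Cre, by small amounts, and Lyz1 was not called in either genotype. Lyz2 in LysM-Cre was 0.39 above its 0 h level after 0.5 h (95% interval 0.21 to 0.57, limma adjusted p = 0.0049), 0.30 above after 1 h (0.12 to 0.48, adjusted p = 0.0091) and 0.32 above after 2 h (0.14 to 0.50, adjusted p = 0.0029). These are 1.31-, 1.23- and 1.25-fold, and the 3 comparisons share the same 0 h libraries. In the background, 5.09%, 19.2% and 30.6% of tested genes were called higher after 0.5, 1 and 2 h. At all 3 times every LPS library of LysM-Cre was above every 0 h library. The call at 0.5 h was lost when only the groups compared were fitted (adjusted p = 0.051). Quantile normalisation gave 0.18 after 1 h and 0.12 after 2 h, and neither passed. The rise at 1 h also lost its call without LysM-Cre 1 h replicate 2 (0.21, adjusted p = 0.077), and it was 0.19 (adjusted p = 0.31) in the high 18S libraries, where 1 library at 1 h is left.

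In the FosKO-labelled libraries, Lyz2 was 0.11 above its 0 h level after 0.5 h (95% interval -0.06 to 0.29, limma adjusted p = 0.50) and 0.12 after 1 h (-0.06 to 0.30, adjusted p = 0.33), and neither passed. The fit shares one spread between the genotypes. The SD of Lyz2 was 0.02 to 0.06 in the FosKO-labelled groups and 0.09 to 0.21 in the LysM-Cre groups. The intervals may thus be too wide here and too narrow in LysM-Cre, so calls cannot be compared between the genotypes. With a term for genotype by replicate number, a block of 6 levels, the 0.12 after 1 h was called (adjusted p = 0.026), as it was without the LysM-Cre libraries numbered 2 (adjusted p = 0.020). After 2 h Lyz2 was 0.21 above its 0 h level (0.03 to 0.39, adjusted p = 0.037). At 0.5, 1 and 2 h alike, every FosKO-labelled library was above every FosKO-labelled 0 h library. The background was 4.45%, 17.6% and 32.6% of tested genes called higher at 0.5, 1 and 2 h. The call at 2 h was lost on leaving out any 1 of its 6 libraries (adjusted p = 0.055 to 0.089), and quantile normalisation turned the difference to -0.42 (adjusted p = 0.00081). The direction of Lyz2 at 2 h in these libraries therefore depends on the scaling, while under the same normalisation the differences at 0.5 and 1 h were 0.20 and 0.10, not called.

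Lyz1 differed from its 0 h level by 0.01, 0.10 and 0.13 in LysM-Cre after 0.5, 1 and 2 h, and by 0.09, 0.14 and 0.13 in the FosKO-labelled libraries (SE 0.17). None passed, and the 95% intervals of these differences ran from -0.35 at the lowest to 0.49 at the highest, so changes within that range could not be told from none. In the FosKO-labelled libraries Lyz1 was above the 0 h library of the same number in each replicate at all 3 times, and in LysM-Cre this held at 1 and 2 h and not at 0.5 h. With the block of 6 levels the lowest adjusted p for Lyz1 was 0.063 in LysM-Cre and 0.070 in the FosKO-labelled libraries, both at 2 h, so no call was made there either. The responses were also set against each other. The response of Lyz2 in the FosKO-labelled libraries was lower than that in LysM-Cre by 0.28, 0.18 and 0.11 after 0.5, 1 and 2 h (limma adjusted p = 0.74, 0.83 and 0.64). For Lyz1 the corresponding differences were 0.08, 0.03 and -0.0044 (adjusted p = 0.98, 0.99 and 0.99). No difference in response was called for either gene, where 0.115%, 1.22% and 15% of tested genes were called in either direction at 0.5, 1 and 2 h. Under quantile normalisation the difference in response of Lyz2 at 2 h was -0.54 and was called (adjusted p = 0.010).

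Put in order of its group means, Lyz1 ran from 8.33 (labelled FosKO, 0 h) through 8.42 (0.5 h), 8.46 (2 h) and 8.47 (1 h) to 8.98 (LysM-Cre, 0 h), 8.99 (0.5 h), 9.09 (1 h) and 9.11 (2 h). Neighbours in that order overlapped in their libraries except at the step between the genotypes. The order of Lyz2 was 10.94 (LysM-Cre, 0 h), 11.24 (1 h), 11.26 (2 h) and 11.33 (0.5 h), then 16.10 (labelled FosKO, 0 h), 16.22 (0.5 h), 16.22 (1 h) and 16.32 (2 h). Its neighbours overlapped among the LysM-Cre groups with LPS and between 0.5 and 1 h in the FosKO-labelled libraries, and not at the other steps. The SDs behind these means were 0.14 to 0.35 for Lyz1 and 0.02 to 0.21 for Lyz2.

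Per kilobase of transcript, the scale on which levels of different genes can be compared, Lyz2 was the higher member in every library. The log2 level of Lyz2 over Lyz1 per kilobase was 1.90 ± 0.36 (SD, n = 3) in LysM-Cre and 7.71 ± 0.17 in the FosKO-labelled libraries at 0 h. Over all 12 libraries of each genotype it ran from 1.68 to 2.70 and from 7.51 to 7.99. Of the summed linear values of both genes, without length correction, Lyz1 made up 12.9% to 23.0% in LysM-Cre and 0.376% to 0.525% in the FosKO-labelled libraries. Among 13873 tested genes with an annotated length, Lyz2 ranked 14th or 15th by level per kilobase in the groups labelled FosKO and between 523rd and 640th in LysM-Cre. Lyz1 ranked between 3435th and 3636th, and between 2365th and 2444th.

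LysM-Cre replicate 2 stood apart in both genes. At all 4 times it had the lowest Lyz1 (8.67 to 8.82, where replicates 1 and 3 had 9.04 to 9.36) and the highest Lyz2 of its group. Of all tested genes, LysM-Cre replicate 2 was the lowest of its group at all 4 times for 2.12% and the highest for 1.47%. Within groups, deviations of Lyz1 and Lyz2 had a Pearson r of -0.87 over the 12 LysM-Cre libraries and 0.49 over the 12 labelled FosKO. These libraries share replicate numbers across times, so the r describes few independent points. Among FosKO-labelled libraries, replicate 3 had the highest Lyz1 at all 4 times, which held for 4.75% of tested genes.

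Leaving out the LysM-Cre libraries numbered 2, a choice made after seeing the data, gave Lyz1 differences of -0.81, -0.66, -0.75 and -0.85 at 0, 0.5, 1 and 2 h (limma adjusted p of at most 0.00086), and Lyz2 differences of 5.22, 5.01, 5.07 and 5.14. Pooled within groups, the SD of Lyz1 was 0.23, larger than that of 92.5% of tested genes, and that of Lyz2 was 0.11, larger than that of 63.8%. The median SD of a tested gene was 0.083.

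**Figure D3:**
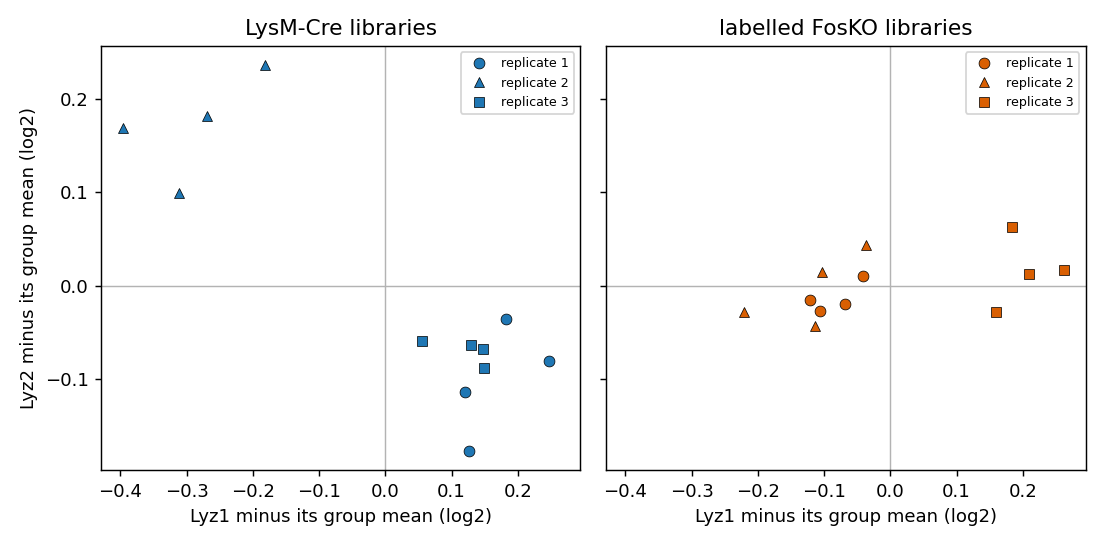
Each point is a library, with its Lyz1 value (horizontal) and Lyz2 value (vertical) minus the mean of its group, on the log2 scale. Left: LysM-Cre. Right: FosKO-labelled libraries. Shapes give replicate numbers, 4 points each, from the 4 times. The 4 LysM-Cre libraries numbered 2 lie at the upper left, with Lyz1 0.18 to 0.40 below and Lyz2 0.10 to 0.24 above the group mean.

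The genes on either side show how far the difference extends along chromosome 10. Of the 20 nearest protein-coding genes, 10 on each side, 11 passed the filter on low values. Over the 4 times in turn, 2, 2, 3 and 4 were called higher, and 3, 3, 3 and 2 were called lower, beside 19.5%, 21.2%, 18% and 24.4% of all tested genes called higher and 15.9%, 19.7%, 15.9% and 20.3% called lower. For 11 genes these counts are near that background. The medians of their differences, -0.045 to -0.013, were near those over all genes tested (-0.0032 to 0.0040). Cpsf6, a pre-mRNA cleavage factor gene and the nearest measured neighbour of Lyz1, differed by -0.02 at 0 h and by 0.01 at 2 h, and neither passed. Yeats4, which encodes a reader of histone acylation and is the nearest measured neighbour of Lyz2, was lower by 0.12 at 0 h (adjusted p = 0.031).

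The neighbours called at 0 h with the largest differences were Nup107, a nuclear pore gene, at -0.28 (limma adjusted p = 0.0012), Mdm2, which encodes the ubiquitin ligase of p53, at 0.26 (adjusted p = 0.00041), Rap1b, a small GTPase gene, at 0.22 (adjusted p = 0.00041) and Mdm1 at -0.21 (adjusted p = 0.044). Under quantile normalisation Rap1b turned to -0.03 at 1 h, and Mdm1 lost its call at 0 h under both other scalings. The largest difference among these neighbours at 2 h, 0.43 for Mdm2, was less than that of Lyz1 in size. Of the other neighbours, 4 did not pass the filter and 5 were not analysed here.

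**Figure D4:**
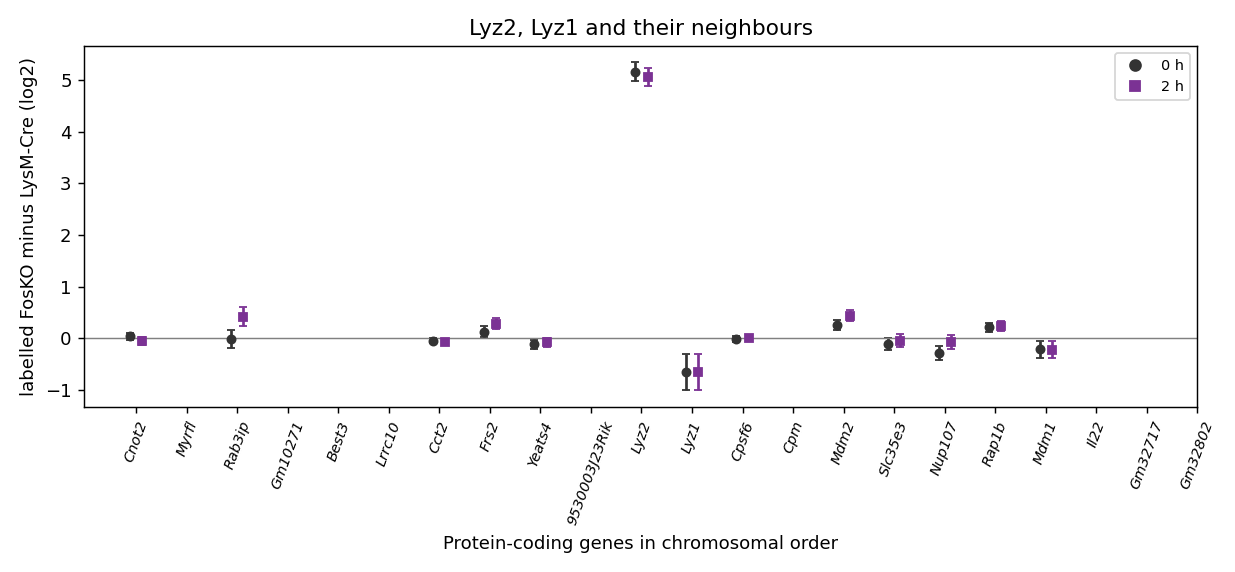
Difference between FosKO-labelled libraries and LysM-Cre (log2, with 95% confidence intervals, n = 3 per group) at 0 h (circles) and 2 h (squares) for Lyz2, Lyz1 and the 10 protein-coding genes on each side in chromosomal order, not to scale in distance. Genes without a point did not pass the filter or were not analysed here. Lyz2 lies at 5.17 and 5.06, Lyz1 at -0.65 and -0.65, and the tested neighbours lie between -0.28 and 0.43.

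Of the other lysozyme family genes listed, only Lyzl4, a lysozyme-like gene known from testis, was tested. Its mean log2 value at 0 h was 5.30 ± 0.24 (SD, n = 3) in LysM-Cre and 4.42 ± 0.15 in the FosKO-labelled libraries. It was lower in the latter at all times, by 0.88 at 0 h (limma adjusted p = 5.75e-05), 0.94, 1.02 and 0.81. The groups did not overlap at any time. The value is low, and on this scale the size of the change of a low gene may be understated.

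Among genes that sense or handle peptidoglycan, the substrate of lysozyme, 14 of 19 listed were tested. At 0, 0.5, 1 and 2 h, 8, 9, 4 and 7 were called higher in the FosKO-labelled libraries and 1, 0, 0 and 0 lower, beside 19.5%, 21.2%, 18% and 24.4% of all tested genes called higher and 15.9%, 19.7%, 15.9% and 20.3% called lower. Their median difference was 0.21, 0.21, 0.11 and 0.14. Nod1, an intracellular sensor of peptidoglycan fragments, differed most, by 1.21 at 0 h (limma adjusted p = 3.02e-06) and 1.27 at 2 h. Nod2, which senses muramyl dipeptide, differed by 0.68 at 0 h (adjusted p = 3.00e-05) and by 0.19 at 2 h, where it did not pass. Slc15a3, an endolysosomal transporter of peptides, was higher by 0.67 at 0 h (adjusted p = 1.01e-08) and by 0.55 at 2 h. Tlr2, a receptor for bacterial lipoproteins, was higher by 0.48 at 0 h (adjusted p = 0.0012) and stood at -0.07 at 2 h. The gene called lower at 0 h was Cd14, the LPS co-receptor, at -0.22, and at 2 h it was called higher by 0.14 and turned to -0.12 under quantile normalisation.

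Other antibacterial effectors were called in both directions. Of 18 listed 12 were tested, and 5 were higher at each of the 4 times, with 5, 4, 5 and 5 lower at 0, 0.5, 1 and 2 h, beside 18% to 24.4% of all tested genes called higher and 15.9% to 20.3% called lower at these times. Saa3, a serum amyloid A gene, was higher by 2.06 at 0 h (limma adjusted p = 4.05e-08), Nos2, the inducible nitric oxide synthase, by 1.92 (adjusted p = 2.30e-05) and Slpi, a secreted protease inhibitor, by 0.96 (adjusted p = 1.23e-05). Ngp, a neutrophil granule gene, was lower by 0.96 (adjusted p = 0.00024). Of the 5 called lower at 0 h, Ngp, Ltf, S100a8 and S100a9 are also in the list of neutrophil markers and had low means, 3.84 to 4.77 in LysM-Cre. With a filter at a linear value of 50, those called lower came to 2 at each time. No member of the list came near the 5.17 of Lyz2.

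Myeloid transcription factors, which include known regulators of lysozyme genes, differed by small amounts. Of 12 listed 11 were tested, and 4, 4, 5 and 6 were called higher and 2, 2, 0 and 1 lower at 0, 0.5, 1 and 2 h, beside 18% to 24.4% of all tested genes called higher and 15.9% to 20.3% called lower at these times. The counts called higher are above that background and those called lower near or below it, but under other settings the counts called higher fell to 2, 1 and 3 at 0, 0.5 and 1 h at the lowest. At 0 h the largest differences were 0.40 for Cebpb (limma adjusted p = 0.023), -0.22 for Cebpa (adjusted p = 0.019), -0.20 for Runx1 (adjusted p = 0.0014) and 0.14 for Elf1 (adjusted p = 0.0055). Cebpb and Cebpa encode C/EBP factors of myeloid cells. Without the LysM-Cre libraries numbered 2, Cebpa did not pass at 0 h (adjusted p = 0.11). Spi1, which encodes PU.1, differed by 0.09 at 0 h, which passed (adjusted p = 0.042) and turned to -0.04 under quantile normalisation.

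Marker genes of the sampled and of other cell types moved with genotype too, and their part in the lysozyme values was not tested. All 12 macrophage markers were tested, and at 0 h 7 were higher and 4 lower in the FosKO-labelled libraries, where 19.5% of all tested genes were called higher and 15.9% lower. Their summed level, on the log2 scale, was 18.02 to 18.06 in LysM-Cre and 18.13 to 18.16 in the FosKO-labelled libraries. Aif1, Mertk and Fcgr1 were higher by 0.98, 0.97 and 0.65, and Cd14 lower by 0.22. These differences at 0 h are a fraction of that of Lyz2, while those of Aif1 and Mertk exceed in size the -0.65 of Lyz1. At 2 h 8 macrophage markers were called higher and 0 lower, where 24.4% of all tested genes were called higher and 20.3% lower. Mertk was then higher by 1.65. Of those called higher at 2 h, Cd14, Cd68 and C1qc turned negative under quantile normalisation.

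Neutrophil and precursor markers, of which 6 of 12 listed were tested, gave 1 higher and 4 lower at 0 h, against the same background. The higher gene was Csf3r, the receptor for G-CSF, by 1.10, and Ngp, S100a9 and Ltf were lower by 0.96, 0.81 and 0.65. Their summed level was 9.82 to 10.00 in LysM-Cre and 10.49 to 10.79 in the FosKO-labelled libraries at 0 h. That sum was higher through Csf3r alone (mean 9.21 and 10.31), since the other 5 tested markers had lower means. Ly6g and Elane were near the lowest value of the table in all libraries. For 7 tested monocyte and dendritic cell markers of 8 listed, 2 were higher and 1 lower, with a summed level of 10.09 to 10.26 against 9.46 to 9.76. Here the sum was lower mainly through Ccr2, a chemokine receptor gene of monocytes (mean 10.07 and 9.42), while the median difference of the list was 0.32 at 0 h. By 2 h this list had 1 called higher and 2 lower, with a median of 0.04 and Zbtb46 lower by 0.96. The neutrophil list then had 1 higher and 5 lower. Of all tested genes, 24.4% were called higher and 20.3% lower at 2 h. For lymphocyte, stromal, mast and erythroid markers 2 of 11 listed were tested, neither was called, and the summed level was 4.70 to 4.99 against 4.24 to 4.53.

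By pattern over the 24 libraries, the 5 genes most like Lyz2, among 10613 tested genes with a linear mean of at least 50, were Mfge8 (Pearson r 0.994), Glb1 (0.993), Gpx3 (0.989), Clec4n (0.988) and Ass1 (0.988). Mfge8 encodes a bridging protein for the uptake of dying cells and Glb1 the lysosomal beta-galactosidase. Mfge8 had a mean log2 value of 11.59 in LysM-Cre and 12.88 in the FosKO-labelled libraries, and Glb1 10.20 and 11.46. These steps between genotypes are smaller than that of Lyz2, and the r reflects mostly the step. Among the 5 genes most opposite to Lyz2, named after their values were seen, most steps were larger than those of Mfge8 and Glb1. Gm13841 and Gm8210, with the same means and the same r, stood at 9.55 in LysM-Cre and 4.99 in the FosKO-labelled libraries (r -0.995). Nptx1, a neuronal pentraxin gene, stood at 9.02 and 6.53 (r -0.994), and Folr2 at 11.28 and 9.24 (r -0.992). Prps2 had a smaller step, from 10.93 to 10.29 (r -0.992). The 5 genes most like Lyz1 were Efemp2 (0.909), Ube2c (0.885), Rasgrp4 (0.884), Qpct (0.879) and Ctsl (0.876). Ctsl encodes the lysosomal protease cathepsin L and stood at 14.00 in LysM-Cre and 13.27 in the FosKO-labelled libraries, and Ube2c, a gene of mitotic ubiquitination, at 8.31 and 7.59. The libraries share genotype and time, so these values are a description only.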

How the data were processed

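Total RNA of 24 BMDM libraries was sequenced. The authors mapped reads with STAR 2.5.2a and counted genes with RSEM 1.2.31 on mm10 RefSeq genes. The labels' processing notes name GRCm38 and DESeq2 1.16.1. The deposited values are normalised expression on a log2 scale, made by the authors by a transformation that is not given in the sources used here, and genes with few reads are nearly constant in them. The methods give a typical read yield for the libraries together but not the depth of each, which these values do not show, and the number of libraries sets the precision. The table held 24273 genes, 1017 without a symbol. All 24 columns were assigned to samples by title, and no pair of libraries was identical.

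Genes with a linear value of at least 5 in at least 3 libraries (13901) were fitted as 8 group means with limma 3.58.1 in R 4.3.3 (empirical Bayes with a trend, 16 residual degrees of freedom, no pseudocount). P-values were adjusted by Benjamini-Hochberg over these genes for each of 13 comparisons, two-sided, and called under 0.05. The script was tested on simulated data. Count models were not used, since the values are not counts. Neighbours were the 10 protein-coding genes on each side, and genes most like a member were the 5 with the highest Pearson r. Up to 4 called genes of a list were named, by size at 0 h, and a few more were named after their values were seen. Members and lists were chosen with earlier results of these data known. Gene models came from GENCODE vM21, and promoter windows from RefSeq. Alternatives were a replicate term, other scalings, a pseudocount of 1, other filters, fewer libraries, no trend, the 18S level and leaving out libraries. Among the groups compared, deviations from the group means over all tested genes were correlated. They exceeded 0.1 for all 3 replicate numbers only between 0 and 0.5 h in the FosKO-labelled libraries (0.13 to 0.27). Libraries were high in 18S above a log2 value of 18.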

Additional observations from a re-analysis of the deposited data

How the results depend on the processing

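Of 496 alternative fits of Lyz1 and Lyz2, 478 kept the side of the threshold with no called value changing sign, among them all for Lyz2 between genotypes (4.63 to 5.22 over the settings). In 30 of the 478 a difference of Lyz1, with LPS or between responses, that was not called changed sign. Under quantile normalisation Lyz2 with LPS was -0.42 in the FosKO-labelled libraries at 2 h, a reversal, 0.18 and 0.12 in LysM-Cre at 1 and 2 h, not called, and the difference in response at 2 h was -0.54, called. In the high 18S libraries, which are fewer, Lyz1 between genotypes (-0.50 at 0.5 h, -0.68 at 1 h) and Lyz2 at 1 h in LysM-Cre (0.19) were not called. Lyz2 at 0.5 h in LysM-Cre (0.39) was not called from the groups compared alone, nor Lyz2 at 2 h in the FosKO-labelled libraries (0.21) with no filter, where more genes are tested. Leaving out single libraries, Lyz2 at 1 h in LysM-Cre was 0.21 to 0.36 and at 2 h in the FosKO-labelled libraries 0.20 to 0.23. Over all tested genes, replicate numbers paired only 0 and 0.5 h in the FosKO-labelled libraries among the groups compared. There the block of 6 levels called neither Lyz1 (0.09) nor Lyz2 (0.11). Of pairs of libraries with the same number and genotype, 12 of 36 correlated above 0.1, some between LPS times not compared here, and 2 of 12 at the same time. For Lyz1 itself the numbers did repeat. In LysM-Cre replicates 1 and 3 lay above and replicate 2 below the group mean at all 4 times. In the FosKO-labelled libraries replicate 3 lay above and replicates 1 and 2 below at all 4 times. With a replicate block of 6 levels Lyz2 at 1 h in the FosKO-labelled libraries (0.12) was called, as it was without the LysM-Cre libraries numbered 2 (0.12), and the block of 3 or 6 levels changed no other call of Lyz1 or Lyz2. Other than where stated, the causes were not tested.

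For other genes quantile normalisation reversed Cd14 (-0.12), Gabpa (-0.077), Csf1r (-0.30), Cd68 (-0.051) and C1qa (-0.13) at 2 h, Spi1 at 0 h (-0.036), C1qb at 1 h (-0.056), C1qc at 0, 1 and 2 h (-0.011, -0.016 and -0.081) and Rap1b at 1 h (-0.027). Counts moved by over 1.5 times in 42 of 440 cases. Peptidoglycan genes called higher at 1 h went from 4 to 7 with the block of 3 levels, and those lower from 0 to 1 or 2 at 0.5, 1 and 2 h. Effectors called lower went from 5, 4, 5 and 5 to 2 with a filter at 50, and those higher at 2 h from 5 to 3 under quantile normalisation. For transcription factors those higher fell from 4 to 2 at 0 h, 4 to 1 at 0.5 h and 5 to 3 at 1 h at the lowest, and those lower went from 2, 2, 0 and 1 to 1, 1, 1 and 3. Neighbours called higher at 1 h went from 3 to 1, and those lower from 3, 3 and 2 to 1, 1 and 0 at 0, 1 and 2 h at the lowest. The depth of each library is not given, so the limit it sets could not be stated.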
